A study of Mus musculus with 8 samples.

Results

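The 10 genes described here, Fos, Fosb, Jun, Junb, Egr1, Atf3, Ier2, Ier3, Dusp1 and Zfp36, form a set of immediate early genes that was chosen by gene symbol and matched to the Ensembl identifiers of the count files. They are 10 of the 56980 genes in those files, and all 10 passed the filter on low counts that left 15986 genes for testing. Expression was measured by RNA sequencing of mucosa scraped from the jejunum of male mice. Adipoq-F2-KO mice carried floxed alleles of the short-chain fatty acid receptor FFA2 and a Cre recombinase driven by the adiponectin promoter, so that the deletion was aimed at adipocytes and not at the cells of the mucosa. FFA2 fl/fl littermates carried the same floxed alleles and no Cre and served as controls (floxed controls below). Both groups were 12 weeks old when they were moved from chow to a Western diet with 10% fructooligosaccharides, a fermentable fiber, and tissue was taken 2 weeks later, the housing being thermoneutral, with 4 libraries per genotype.

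Immediate early genes are transcribed within minutes of a stimulus because the factors that switch them on, among them serum response factor with its ETS partners and the cAMP response element binding protein CREB, are already present in the cell. Most of their mRNAs are also short-lived, since AU-rich elements in the 3′ untranslated region recruit decay factors. In the gut these genes respond to growth factors, feeding, microbial products, stretch and injury, and they are also known to respond to the handling of tissue. The study describes its tissues as dissected at once and frozen in liquid nitrogen, in its account of a longer feeding period. How long each piece of tissue took from death to freezing, and when each mouse had last eaten, is not given in the sources used here.

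Promoter sequences and AU-rich stretches of these genes are shown first, as a description of the loci. RefSeq (GRCm38.p6) supplied promoter windows for 8 of the 10 genes, all but Egr1 and Ier2. The 250 bases before the start site were searched on both strands for 6 motifs, and the last 150 bases are printed 5′ to 3′ for Fos, Fosb and Dusp1, whose levels were among the most variable between libraries, and for Zfp36, whose level was steadier. Capitals mark the core of a cAMP response element (TGACG), the full palindromic element (TGACGTCA, which contains the core on both strands) in Dusp1, and a CArG box, the site of serum response factor, in Zfp36.
Fos (chr12:85473740-85473889, plus strand): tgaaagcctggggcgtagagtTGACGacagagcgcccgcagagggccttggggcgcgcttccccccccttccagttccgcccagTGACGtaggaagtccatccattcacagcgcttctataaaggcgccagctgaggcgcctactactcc
Fosb (chr7:19310046-19310195, minus strand): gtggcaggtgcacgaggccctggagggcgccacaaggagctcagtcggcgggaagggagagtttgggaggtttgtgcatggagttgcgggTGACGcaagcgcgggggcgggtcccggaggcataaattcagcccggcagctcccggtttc
Dusp1 (chr17:26508473-26508622, minus strand): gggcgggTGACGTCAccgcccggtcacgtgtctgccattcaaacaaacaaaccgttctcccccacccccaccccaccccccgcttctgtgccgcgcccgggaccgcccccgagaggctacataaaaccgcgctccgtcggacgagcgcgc
Zfp36 (chr7:28379229-28379378, minus strand): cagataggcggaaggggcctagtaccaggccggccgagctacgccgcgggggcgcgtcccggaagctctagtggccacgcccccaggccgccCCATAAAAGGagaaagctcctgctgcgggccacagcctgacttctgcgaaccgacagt

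The TGACG core was present in 5 of the 8 windows (Fos, Fosb, Junb, Atf3 and Dusp1), against 17.8% of 32851 RefSeq promoters. In Fos it lay 129 to 125 and 66 to 62 bases before the start, and in Fosb 60 to 56 bases before it. The full element TGACGTCA was found in Dusp1 alone (1.55% of promoters), and the CArG box in Zfp36 alone (1.47%), where it lay 58 to 49 bases before the start and also contains a TATA-like run. The AP-1 site TGANTCA, which Fos and Jun dimers bind, was found in none of the 8 windows (6.75% of promoters). The EGR site GCGNGGGCG was found in Fosb and Zfp36 (4.70% of promoters), and TATAAA in Fos alone (12.4%). Jun and Ier3 held none of the motifs searched. The hits are matches of letters in a short window and say nothing on binding or on sites farther away.

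The other sequence feature looked at is the pentamer ATTTA, the core of AU-rich elements, which is bound by the protein that Zfp36 itself encodes. In the GENCODE annotation of GRCm38, 9 of the 10 genes had at least 1 ATTTA in the 3′ untranslated region, against 66.0% of 12593 tested genes with such a region, and 6 of the 10 had at least 3, against 34.3%. Ier3 was densest, with 8.16 per kb, more than 98.3% of genes, followed by Dusp1 (5.80 per kb) and Fos (4.91 per kb). Fosb had 1 in 2145 bases and Ier2 had none. Stretches of 30 bases around the pentamer, in capitals, are printed for the densest genes and for Zfp36 and Jun.
Ier3 (chr17:35822480-35822509, plus strand): gtgtctaattaatATTTAtgtATTTAtgta
Dusp1 (chr17:26506159-26506188, minus strand): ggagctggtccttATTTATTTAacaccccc
Fos (chr12:85477098-85477127, plus strand): tattgtgttttcaATTTATTTAttaagatg
Zfp36 (chr7:28376963-28376992, minus strand): tgggccctttATTTAtgacgactttATTTA
Jun (chr4:95049210-95049239, minus strand): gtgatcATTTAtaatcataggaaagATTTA
In Fos and Dusp1 the pentamers overlap, and in the stretches of Ier3, Zfp36 and Jun they are separate.

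Library totals ranged from 6007654 to 21712776 counts, and 3 libraries (floxed 3, Adipoq-F2-KO 3 and 4) held fewer than 10000000 and are called shallow here, the other 5 deep. Markers of absorptive enterocytes were high throughout, with 31445 to 40394 normalized counts of Vil1, a microvillus protein, in all libraries, so the defining cells of the labelled tissue were present. Ffar2, the floxed gene, had 2 to 18 raw counts per library, with 4.18 to 9.49 normalized counts in the floxed controls and 5.64 to 12.0 in Adipoq-F2-KO mice, which is too low to check the genotype in this tissue. Floxed library 3 stood apart in other tissue layers. Its 12 smooth muscle markers summed to 33624 normalized counts, against 3823 to 13718 in the other 7 libraries, and its 6 adipocyte markers to 974. The adipocyte markers were also raised in the other shallow libraries, at 416 in Adipoq-F2-KO 3 and 340.3 in Adipoq-F2-KO 4, against 15.8 to 36.6 in the 5 deep libraries. Normalized counts are counts divided by the size factor of the library, and in bulk tissue fewer cells of a type and less RNA per cell cannot be told apart.

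Across all 8 libraries the 10 genes spanned a wide range of levels. Divided by exonic length, Fos was the most abundant, with 914 ± 380 normalized counts per kb (mean ± SD, n = 8), followed by Zfp36 with 810 ± 116. The order of these 2 was not resolved, since Fos was above Zfp36 in 4 of 8 libraries. Fos exceeded 97.2% and Zfp36 96.7% of the tested genes with an annotated length. Junb (452 ± 80.6 per kb) and Jun (378 ± 121 per kb) came next, with Junb above Jun in 6 of 8 libraries. Ier2, a small nuclear protein of growth factor responses, followed at 117 ± 13.1 per kb, and Atf3, a stress-induced repressor, at 78.7 ± 30.3 per kb. Dusp1 (39.7 ± 18.6 per kb), Ier3 (37.5 ± 9.13 per kb) and Egr1 (30.1 ± 18.2 per kb) exceeded 54.3%, 52.9% and 47.6% of those genes and were not separated, Dusp1 being above Ier3 in 5 of 8 libraries and Ier3 above Egr1 in 4 of 8. Fosb was the least abundant per kb at 12.4 ± 7.33, below Egr1 in 8 of 8 libraries, whereas in counts not divided by length Ier3 was lowest.

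**Figure D1:**
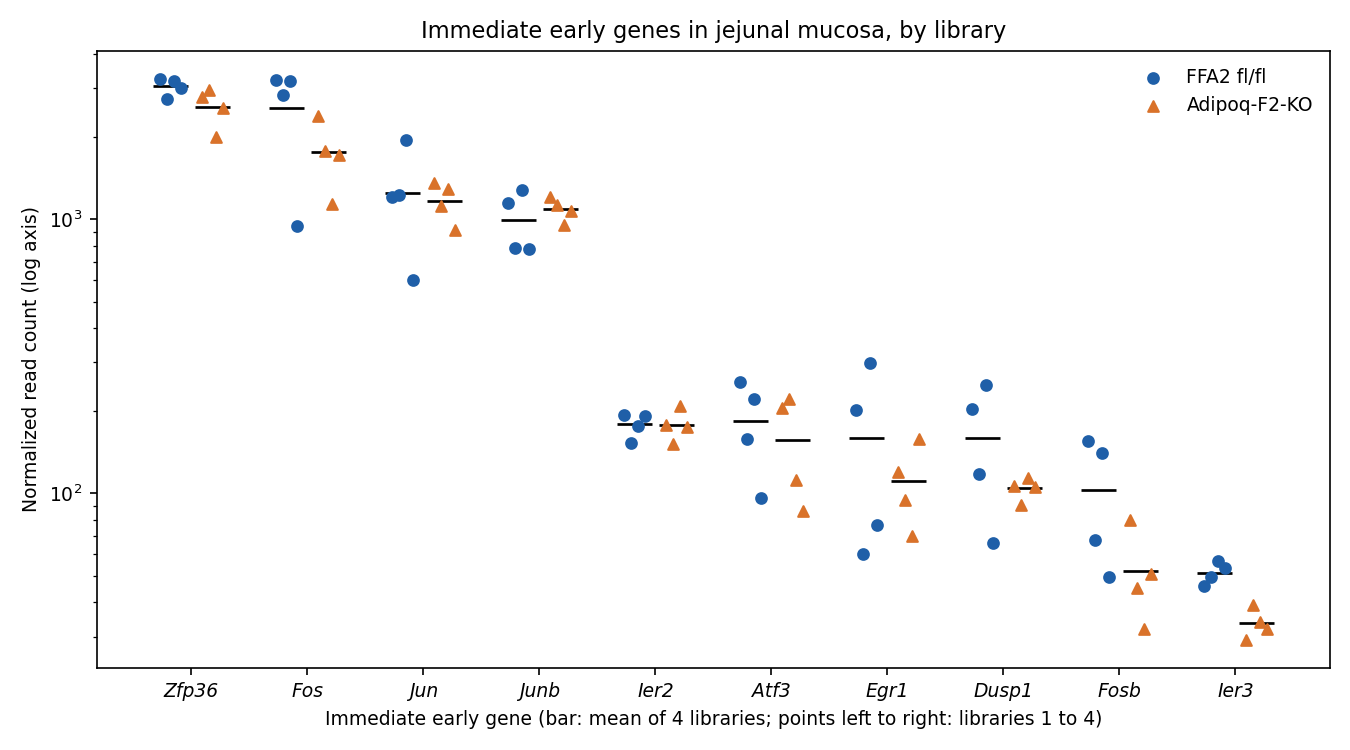
Normalized read count (log axis) of each immediate early gene in the 4 FFA2 fl/fl libraries (circles) and the 4 Adipoq-F2-KO libraries (triangles), drawn from left to right as libraries 1 to 4, with the mean of each group as a bar. Zfp36, Ier2 and Ier3 are tightly grouped, whereas Fos, Egr1, Dusp1 and Fosb spread widely among the floxed controls, and Ier3 is the only gene whose groups do not overlap.

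The question put to these genes was whether their mRNA levels in the mucosa differed between the genotypes. None of the 10 passed an adjusted p of 0.05 in the DESeq2 Wald test, in which 0.0375% of the 15986 tested genes were called. All 10 had an adjusted p of 1.00 after rounding (DESeq2). At an unadjusted p below 0.05, Fosb and Ier3 were lower in Adipoq-F2-KO mice, 2 of 10 genes, where 1.38% of all tested genes were lower and 1.65% higher at that level. edgeR's quasi-likelihood test also gave 0 at the adjusted and 2 at the unadjusted threshold, and limma-voom gave 0 and 1 (Ier3). The estimated fold change was below 0 on the log2 scale for 9 of the 10, against 51.5% of all tested genes, with a median of -0.38 over the 10 and -0.01 over all tested genes. The median was -0.18 with limma-voom, -0.16 without floxed 3 and -0.10 among the 5 deep libraries, and the number below 0 was 7 to 9 over the alternative fits, with 7 among the deep libraries and without floxed 1. The sources tie each library to a mouse only through its title, so the p-values measure the spread between these samples.

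Among the FOS subunits of AP-1, Fosb had the largest estimated difference of the 10 genes, and Fos a smaller and less certain one. Fos, whose protein pairs with JUN proteins, had 3221, 2830.4, 3199 and 942.6 normalized counts in floxed libraries 1 to 4. In Adipoq-F2-KO libraries 1 to 4 it had 2384, 1774, 1139 and 1707. Floxed libraries 1 to 3 were above every Adipoq-F2-KO library, while floxed 4 was the lowest of all 8, so the groups overlapped. The log2 fold change was -0.54 ± 0.43 (SE; 95% interval -1.39 to 0.31), with an unadjusted p of 0.212 and an adjusted p of 1.00 (DESeq2). Leaving out floxed 4 moved the estimate to -0.81 with an unadjusted DESeq2 p of 0.000164, still short of the adjusted threshold (adjusted p = 0.302, the lowest of 16 alternative fits). In the other 15 fits the unadjusted p of Fos stayed above 0.05, and among the 5 deep libraries the estimate was -0.17.

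Fosb, the less abundant relative of Fos, had 155, 67.5, 140.1 and 49.5 normalized counts in the floxed controls. In Adipoq-F2-KO libraries it had 79.7, 45.3, 32.0 and 50.8. Floxed 1 and 3 stood above the rest, and floxed 2 and 4 lay among the Adipoq-F2-KO values. The group means were 103 ± 52.3 and 51.9 ± 20.1 (SD, n = 4 each), and the log2 fold change was -0.96 ± 0.41 (95% interval -1.76 to -0.16), with an unadjusted p of 0.0191 and an adjusted p of 1.00 (DESeq2). Fosb had 16 to 256 raw counts per library, the lowest in the shallow library Adipoq-F2-KO 3. Among the 5 deep libraries alone the log2 fold change was -0.55 with an unadjusted p of 0.297 (DESeq2).

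The JUN subunits had estimates nearer to 0. Jun had 1205, 1229, 1951 and 599.8 normalized counts in floxed libraries 1 to 4, and 1359, 1114, 1283 and 916 in Adipoq-F2-KO libraries. The highest and the lowest of the 8 values were both floxed (libraries 3 and 4), with every Adipoq-F2-KO value between them. The log2 fold change was -0.09 ± 0.28 (95% interval -0.65 to 0.47, DESeq2 adjusted p = 1.00, unadjusted 0.750), and its sign turned in 5 of 16 alternative fits. Junb had 1141, 784, 1276 and 779 in the floxed controls, and 1199.9, 1127, 953 and 1068 in Adipoq-F2-KO mice. It was the only gene of the 10 with an estimate above 0, at 0.13 ± 0.18 (95% interval -0.22 to 0.49, DESeq2 adjusted p = 1.00, unadjusted 0.461), and all Adipoq-F2-KO values again lay within the floxed range. The Junb estimate ranged from 0.032 without floxed 2 to 0.27 without floxed 3, and was 0.36 among the deep libraries. Junb shares exonic sequence with Prdx2 on the opposite strand and Jun with the antisense gene Junos. The strand setting of the counting is not given in the sources used here, so reads in the shared parts are uncertain. Prdx2 had 6438 counts over the 8 libraries where Junb had 9368, and Junos 181 where Jun had 10674.

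Egr1 and Atf3, the remaining transcription factors, varied mostly from library to library. Egr1, a zinc finger activator downstream of ERK signalling, had 201, 60.1, 299 and 76.6 normalized counts in the floxed controls, and 119, 94.9, 70.1 and 158 in Adipoq-F2-KO mice. Floxed 3 and 1 were highest and floxed 2 lowest of all 8, a 4.98-fold span within the controls. The log2 fold change was -0.51 ± 0.46 (95% interval -1.40 to 0.38, DESeq2 adjusted p = 1.00, unadjusted 0.261). It was -0.026 without floxed 3, -0.076 among the deep libraries, which exclude floxed 3 and both shallow Adipoq-F2-KO libraries, and -0.11 with limma-voom on all 8, so the size of the Egr1 estimate depended on floxed 3 and also on the method. Atf3 had 256, 158, 222 and 96.0 in the floxed controls, and 205, 221, 112 and 86.5 in Adipoq-F2-KO mice. Each genotype held high and low Atf3 libraries, and the log2 fold change of -0.21 ± 0.36 (95% interval -0.91 to 0.49, DESeq2 adjusted p = 1.00, unadjusted 0.561) changed sign among the 5 deep libraries, to 0.32, and without floxed 1, to 0.01.

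Of the 2 genes named for their immediate early response, Ier3 was the most distinct between genotypes and Ier2 the least. Ier3, which modulates ERK signalling and cell survival, had 46.0, 49.5, 56.5 and 53.4 normalized counts in the floxed controls. In Adipoq-F2-KO libraries it had 29.2, 39.1, 34.0 and 32.0. All 4 Adipoq-F2-KO libraries were below all 4 floxed libraries, which was true of 1.02% of all tested genes and of no other gene of the 10. The log2 fold change was -0.59 ± 0.26 (95% interval -1.09 to -0.08), with an unadjusted p of 0.0224 and an adjusted p of 1.00 (DESeq2). It lay between -0.70 and -0.51 in the 15 alternative fits in which Ier3 was tested, and its unadjusted p was below 0.05 in 9 of them. Ier3 rested on 400 raw counts in all, 17 to 94 per library. Ier2 had 193, 152, 176 and 192 in the floxed controls and 177, 151, 208 and 175 in Adipoq-F2-KO mice. Both ends of the Ier2 range were Adipoq-F2-KO libraries, and the log2 fold change was -0.02 ± 0.16 (95% interval -0.34 to 0.30, DESeq2 adjusted p = 1.00, unadjusted 0.899).

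Dusp1 and Zfp36 encode proteins that end the response, a phosphatase of MAP kinases and a factor that degrades AU-rich mRNAs. Dusp1 had 203, 118, 249 and 65.8 normalized counts in the floxed controls, and 107, 90.5, 114 and 105 in Adipoq-F2-KO mice. Floxed 3 and 1 were far above the rest and floxed 4 was lowest, a 3.78-fold span, while the Adipoq-F2-KO libraries lay within 1.26-fold of each other. The log2 fold change was -0.60 ± 0.35 (95% interval -1.29 to 0.09, DESeq2 adjusted p = 1.00, unadjusted 0.0886). It was -0.32 without floxed 3 (unadjusted DESeq2 p of 0.335) and -0.85 without floxed 4 (unadjusted p of 0.00182). Zfp36 had 3251, 2752, 3185 and 3004 in the floxed controls, and 2783, 2959, 1994 and 2544 in Adipoq-F2-KO mice. Adipoq-F2-KO 3 and 4 were below every floxed library and the other two within the floxed range, with a log2 fold change of -0.24 ± 0.14 (95% interval -0.51 to 0.02, DESeq2 adjusted p = 1.00, unadjusted 0.0735). The Zfp36 estimate was -0.14 without Adipoq-F2-KO 3 and -0.068 among the deep libraries. It was -0.32 without Adipoq-F2-KO 2 (unadjusted DESeq2 p of 0.0224), and in 1 of 16 alternative fits, that one, the unadjusted p was below 0.05. Dusp1 shares exonic sequence with Ergic1 on the opposite strand (2817 counts against 1157 for Dusp1), and Zfp36 with the antisense gene Gm44710 (32 counts against 26640 for Zfp36).

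**Figure D2:**
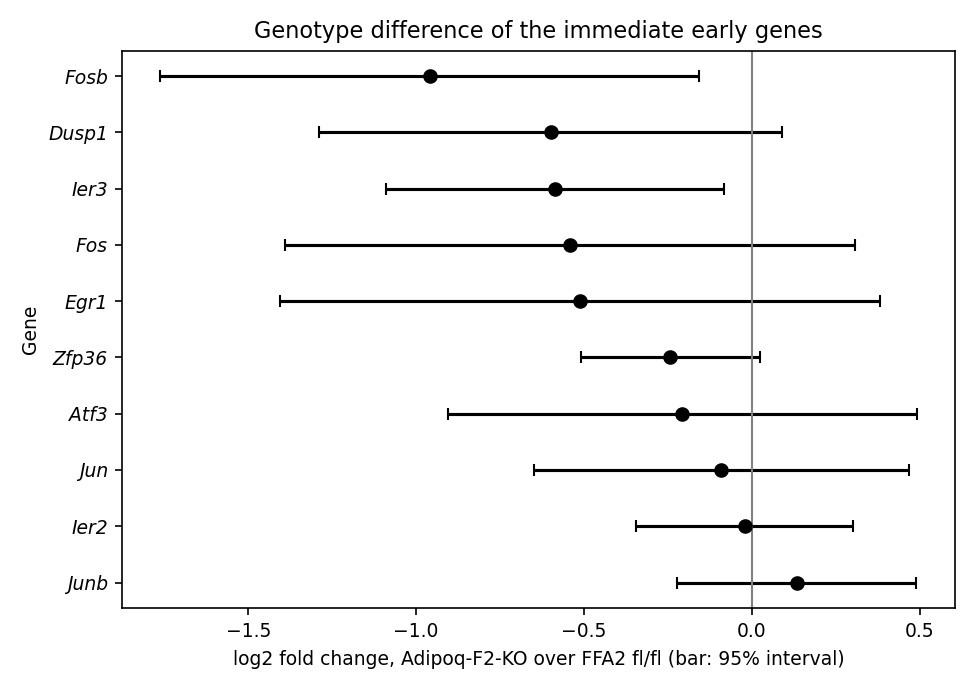
DESeq2 log2 fold change of each immediate early gene, Adipoq-F2-KO over FFA2 fl/fl, with its 95% interval (4 libraries per genotype). The intervals of Fosb and Ier3 lie below 0, the other 8 include 0, and only the estimate of Junb, 0.13, is above 0.

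In 7 of the 10 genes, all but Fosb, Ier3 and Zfp36, the SD of log2 values among the floxed controls was larger than the size of the log2 fold change. The share of all tested genes with this property was not computed, so it is not read as a trait of the set. Fos, Fosb, Egr1, Atf3 and Dusp1 each had a larger SD of log2 values over the 8 libraries than 85.5% to 92.1% of tested genes, with Egr1 and Fosb at the top. Jun was above 77.4%, Ier3 above 61.9%, Junb above 47.9%, Zfp36 above 37.9% and Ier2 above 20.8% of tested genes. Averaged over the 10 genes, the log2 value centred on each gene's own mean was 0.48, -0.07, 0.63 and -0.44 in floxed libraries 1 to 4. It was 0.07, -0.11, -0.36 and -0.20 in Adipoq-F2-KO libraries 1 to 4. Floxed 1 and 3 were therefore high and floxed 4 the lowest of all, and the floxed mean was 0.15 ± 0.50 against -0.15 ± 0.18 in Adipoq-F2-KO mice (SD, n = 4 each). In 9 of the 10 genes the highest library was floxed 1 or 3, as in 31.9% of all tested genes, the exception being Ier2. In 4 of the 10 (Fos, Jun, Junb and Dusp1) floxed 4 was lowest, as in 14.5% of tested genes. The SD was larger among floxed than among Adipoq-F2-KO libraries in 6 of the 10 genes, close to the 55.6% of all tested genes.

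**Figure D3:**
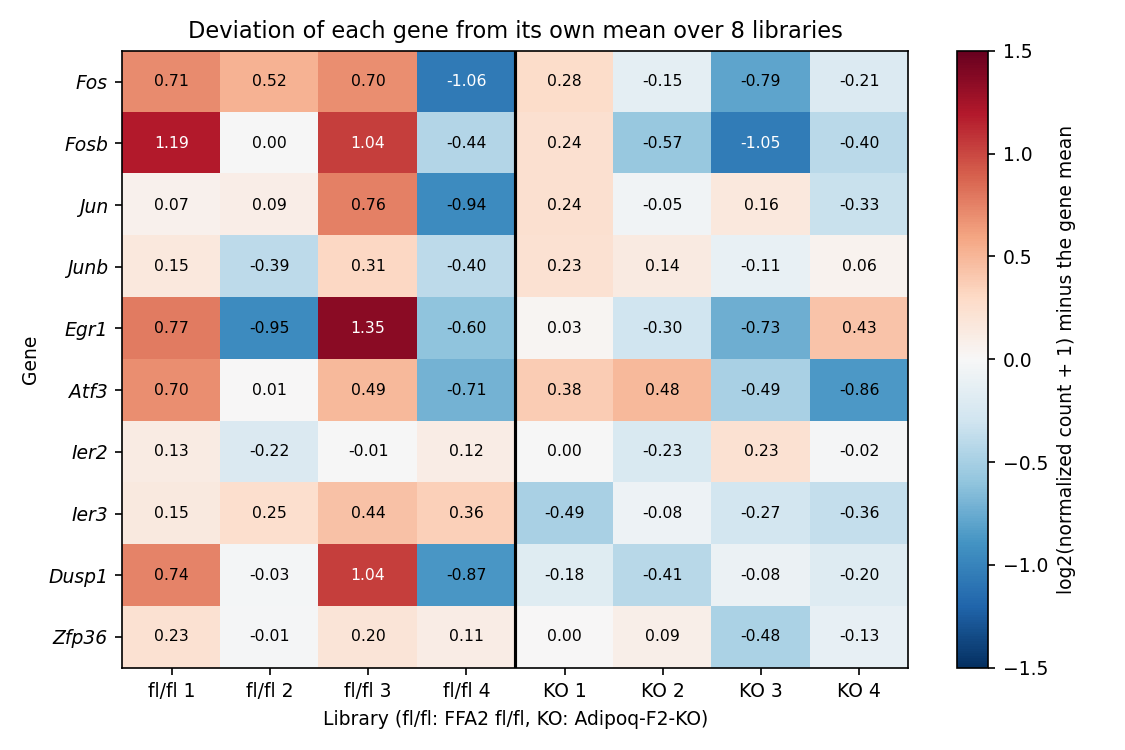
Deviation of log2(normalized count + 1) from the mean of the same gene over 8 libraries, for each immediate early gene (lines) and library (columns, FFA2 fl/fl left and Adipoq-F2-KO right of the black line). Floxed 1 and 3 are red for most genes and floxed 4 blue for Fos, Jun, Egr1, Atf3 and Dusp1, whereas Ier2 and Zfp36 stay pale in most libraries and Ier3 is red in every floxed and blue in every Adipoq-F2-KO library.

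Most of the genes, though not Ier2 and Ier3, also tended to move together from library to library, a feature looked at after the values had been seen. Over the 45 pairs, 36 had a Pearson's r above 0, with a median of 0.50, and after each genotype was centred on its own mean 32 did, with a median of 0.52. For Ier2, r ranged from -0.39 with Fos to 0.12 with Egr1. For Ier3, r after centring ranged from -0.38 with Fosb to 0.085 with Zfp36. The share of positive pairs among other genes was not computed. No pair passed adjustment over the 45 (exact permutation test, two-sided, lowest adjusted p 0.169 for Pearson's r and 0.245 for Spearman's rho), and 10 had an unadjusted p below 0.05. Fos and Fosb gave r = 0.84 (exact permutation p = 0.0109, adjusted 0.169) and rho = 0.86 (p = 0.0107, adjusted 0.245) over 8 libraries. Without the 2 libraries farthest from the median of Fos, r was 0.90. Within the floxed controls r was 0.81 and within Adipoq-F2-KO mice 0.97 (4 libraries each). Dusp1 and Fosb gave r = 0.80 (exact permutation p = 0.0189, adjusted 0.169) and rho = 0.67 (p = 0.0831, adjusted 0.345), and r fell to 0.12 without the 2 farthest libraries, so this relation rested on them. Jun and Dusp1 likewise went from 0.80 to 0.20. Fos and Dusp1 kept r (0.79, then 0.83 without the 2 farthest), but r was 0.89 within the floxed controls and -0.39 within Adipoq-F2-KO mice, where Dusp1 hardly varied.

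**Figure D4:**
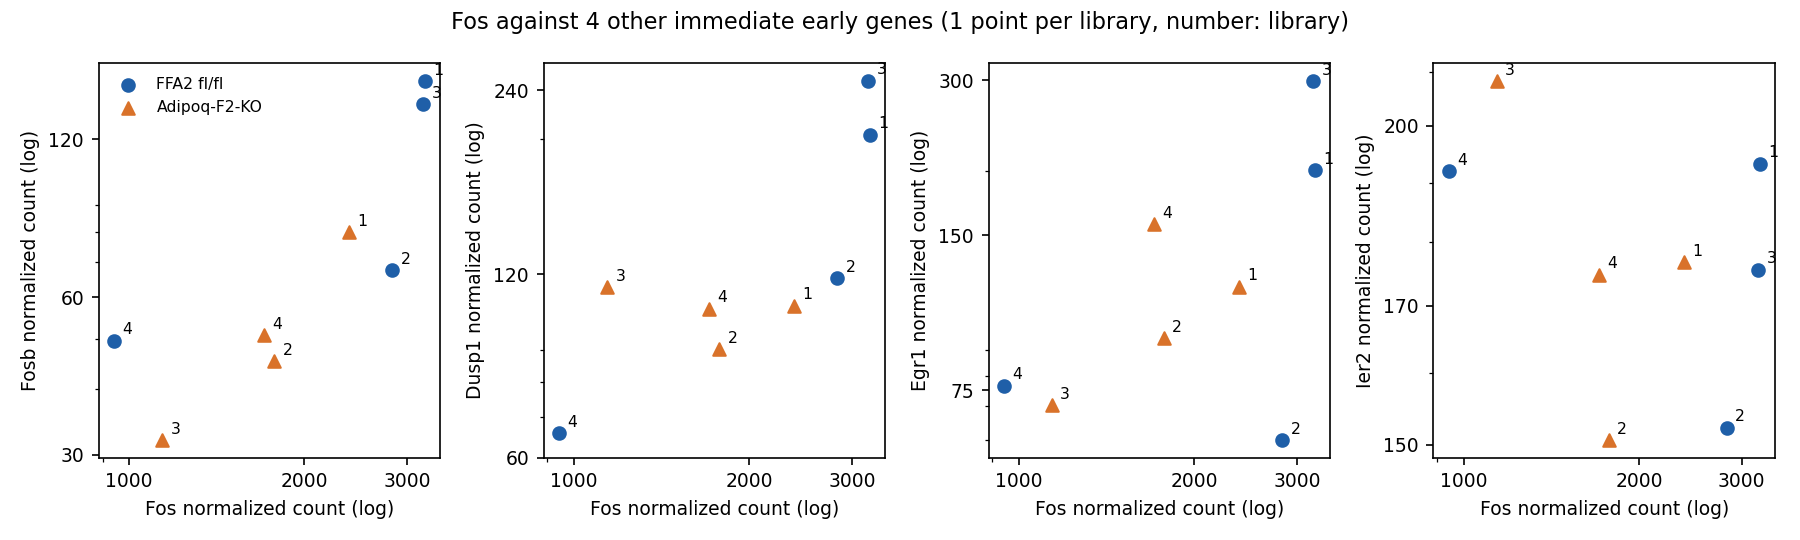
Normalized counts (log axes) of Fos against Fosb, Dusp1, Egr1 and Ier2, with 1 point per library, numbered 1 to 4 within FFA2 fl/fl (circles) and Adipoq-F2-KO (triangles). Fosb follows Fos over both genotypes (r = 0.84), Dusp1 and Egr1 are set apart mainly by floxed 1 and 3, and Ier2 shows no common slope with Fos (r = -0.39).

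The genes outside the set whose pattern over the 8 libraries was most like the mean of the 10, among 10216 candidates with a mean of at least 50 normalized counts, were Gm37558 (Pearson's r = 0.96), Sik1 (0.95), Madd (0.94), Ago4 (0.91) and Acss1 (0.91). Sik1 is a salt-inducible kinase and itself an immediate early gene. None of these r values was tested, since the genes were picked as the highest.

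Levels of other cell types and of stress genes were set beside the 10 genes, as the scrapings hold mixed cells. Pearson's r with the smooth muscle list score ranged from -0.45 to 0.53 over the 10 genes, with the stromal fibroblast score from -0.36 to 0.54, with the villus enterocyte score from -0.62 to 0.64 and with the heat shock score from -0.45 to 0.67. None of these 40 relations passed adjustment (exact permutation test, two-sided, lowest adjusted p 0.949 for r and 0.931 for rho), and none had an unadjusted p below 0.05 by either coefficient. The coefficients rested on few libraries. Without the 2 libraries farthest from the median of the score, r with smooth muscle was below 0 for all 10 genes, from -0.72 for Fosb to -0.039 for Ier3, where 7 of 10 had been above 0. With the villus enterocyte score r then ranged from -0.25 to 0.82, and was 0.72 for Fos, 0.82 for Jun, 0.78 for Junb, 0.79 for Egr1 and 0.80 for Dusp1. Of these 40 values over 6 libraries only that of Junb with the villus score had an unadjusted p below 0.05 (exact permutation p = 0.0444), and none passed adjustment. Floxed 1 and 3, the libraries highest in the immediate early genes, had the lowest (3823) and the highest (33624) summed smooth muscle levels. All 12 smooth muscle markers had estimates below 0, with 0 called and a summed level of 3823 to 33624 in the floxed controls and 4214 to 13718 in Adipoq-F2-KO mice, and none was at 0 throughout. Floxed 3 set the upper end of these sums, the other floxed libraries having 3823, 8785 and 4329, while the smooth muscle list score, a mean of log2 values, was higher in Adipoq-F2-KO mice (0.19) than in the floxed controls (-0.19). Macrophage markers had estimates above 0 in 8 of 8 genes (median 0.54), and B and plasma cell markers in 6 of 6 tested genes (median 0.91), with none of either called or at an unadjusted p below 0.05 (DESeq2). Their summed levels overlapped, macrophage markers at 145 to 468 in the floxed controls and 309 to 588 in Adipoq-F2-KO mice, and B and plasma cell markers at 664 to 3067 and 1302 to 2354. Their part in the values of the 10 genes was not tested. With the smooth muscle score as a covariate the log2 fold changes of Fosb and Ier3 were -0.95 and -0.61, beside -0.96 and -0.59 without it. Without floxed 3 they were -0.79 and -0.55 (unadjusted DESeq2 p of 0.0632 and 0.0527), and the median of the 10 genes was -0.16. Whether the tissue layers in floxed 3 had a part in the differences was not tested further. The library totals fell into separate clusters, so no pooled correlation with depth was computed. Among the 5 deep libraries, floxed 1, 2 and 4 against Adipoq-F2-KO 1 and 2, the median of the 10 genes was -0.10 and none had an unadjusted p below 0.05 (DESeq2).

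The rest of the immediate early programme and its regulators were read from 7 further lists. None of the 122 tested genes in them was called in either direction (adjusted p below 0.05, DESeq2), where 0.0375% of all tested genes were called. Among other immediate early genes for signalling and secreted proteins, 20 of 27 were tested, 16 had estimates below 0 and 4 above, and the list median was -0.22. The 3 with an unadjusted p below 0.05 all had estimates below 0, Sgk1, a kinase of sodium transport (-0.78 ± 0.29), Hbegf, an EGF receptor ligand (-0.57 ± 0.21), and Phlda1 (-0.94 ± 0.37). That level was reached in the lower direction by 1.38% of all tested genes. Sgk1 had 6339.7, 6327, 6322 and 3378 normalized counts in the floxed controls and 5427, 2378, 2290.4 and 2940.4 in Adipoq-F2-KO mice. As with Fos, floxed libraries 1 to 3 were high and floxed 4 was low. Sgk1 and Phlda1 passed the adjusted threshold in only 1 of 16 alternative fits each and Hbegf in 0 (DESeq2), Sgk1 without Adipoq-F2-KO 1 (-1.14, adjusted p = 0.00347) and Phlda1 without floxed 2 (-1.21, adjusted p = 0.0282). The unadjusted p of Sgk1 was above 0.05 in 5 of the 16, with an estimate of -0.46 among the deep libraries, and that of Phlda1 in 3 of the 16. Hbegf was at -0.26 among the deep libraries.

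Other AP-1 subunits and partners stood apart from Fos and Fosb in having estimates mostly above 0, 12 of 14 tested, with a median of 0.07. Fosl2, another FOS relative, had an estimate of 0.14 ± 0.24 and Jund of 0.19 ± 0.11. Of 20 tested immediate early transcription regulators, 11 had estimates above and 9 below 0, with a median of 0.02. Nfkbiz, an inducible nuclear regulator of NF-κB, had the largest estimate of that list (0.64 ± 0.17, unadjusted p = 9.5e-05, adjusted p = 0.127, DESeq2). Nfkbiz had 660 to 1020.4 normalized counts in the floxed controls and 1206 to 1656 in Adipoq-F2-KO mice, with no overlap. The share of all tested genes without overlap in this higher direction was not computed. The adjusted p of Nfkbiz was below 0.05 in 2 of 16 alternative fits, without floxed 2 (0.0419) and without floxed 3 (0.0329). Bhlhe40, a repressor with clock functions, had an estimate of -0.56 ± 0.22, and of -0.36 without floxed 4. Its unadjusted DESeq2 p was 0.0108, and it was below 0.05 in 14 of 16 alternative fits.

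Of 14 tested MAP kinase phosphatases and feedback inhibitors, relatives of Dusp1 in function, 9 had estimates below 0 and 5 above, with a median of -0.09. Errfi1, which blocks the EGF receptor, was at -0.61 ± 0.22 (unadjusted p = 0.00442, adjusted p = 0.995, DESeq2), Spred2, an inhibitor of RAF activation, at -0.26 ± 0.11 with all 4 Adipoq-F2-KO libraries below all 4 floxed, and Dusp16, a phosphatase of JNK and p38, at 0.21 ± 0.11. Errfi1 had an adjusted p below 0.05 in 2 of 16 alternative fits, without floxed 3 (-0.79, adjusted p = 0.000165) and among the deep libraries (-0.84, adjusted p = 0.00873, DESeq2). In the AU-rich element decay factors (16 tested, 10 above and 6 below 0, median 0.07) and in the upstream ERK, SRF and CREB components (24 tested, 17 above and 7 below 0, median 0.04) no gene had an unadjusted p below 0.05. The heat shock genes (14 tested, 3 above and 11 below 0, median -0.10) had none either, and their summed level was 7478 to 8751 in the floxed controls and 6714 to 8077 in Adipoq-F2-KO mice. Of all tested genes, 1.38% were lower and 1.65% higher at an unadjusted DESeq2 p below 0.05. Members of the upstream list lay between -0.10 and 0.27, a narrower range than the -0.96 to 0.13 of the 10 immediate early genes.

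**Figure D5:**
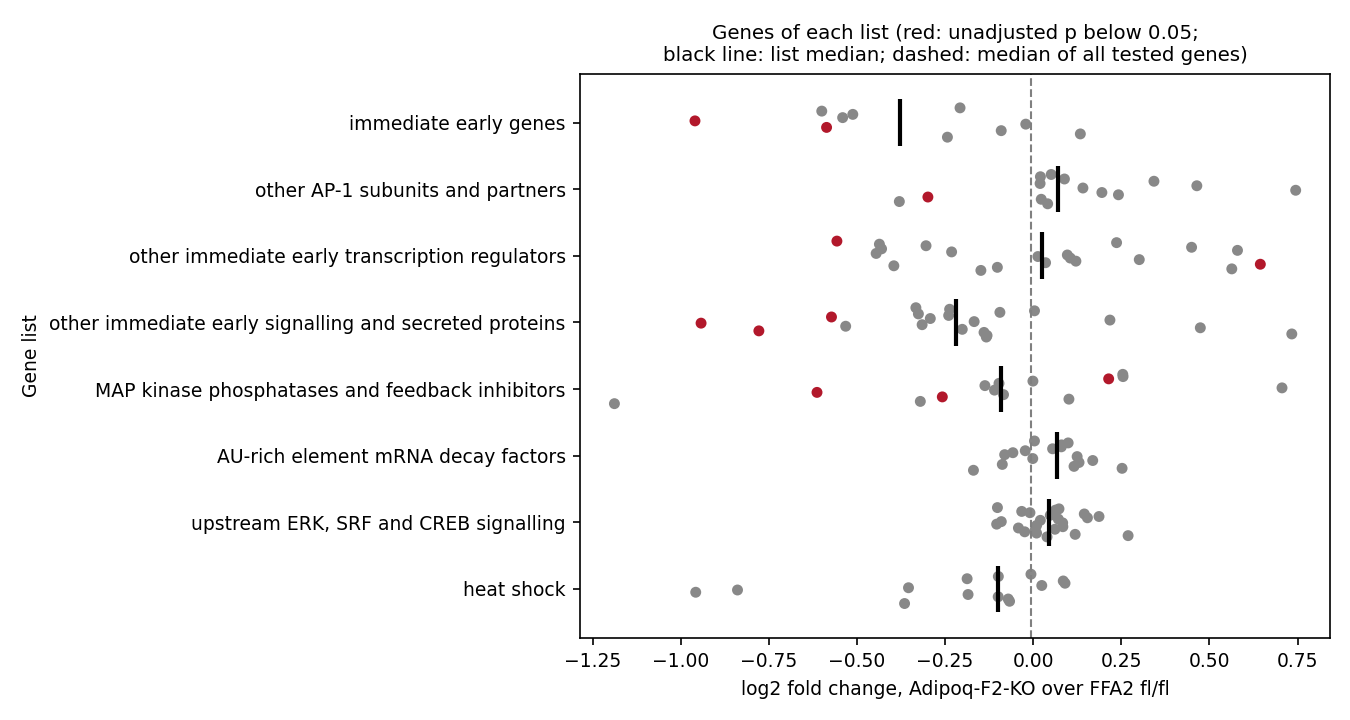
DESeq2 log2 fold change (Adipoq-F2-KO over FFA2 fl/fl) of every tested gene in the immediate early set and in 7 related lists, with 1 point per gene, red where the unadjusted p is below 0.05, and the list median as a black line. The medians of the immediate early genes (-0.38) and of the other signalling and secreted proteins (-0.22) are lowest, while the upstream and decay lists are narrow and centred near the median of all tested genes (dashed, -0.01).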

How the data were processed

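Poly(A)-selected, stranded libraries from 8 jejunal mucosa samples were read from one end over 75 bp. The deposited values are raw read counts per Ensembl gene, made by the authors, neither normalized nor pooled; the submitters' processing notes name Trimmomatic, STAR, featureCounts, DESeq2 and GRCm38 (mm10), while versions, annotation release and strand setting are not given in the sources used here. Groups were taken from the sample titles.

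Genes reaching 10 counts in 4 or more libraries were fitted together with DESeq2 1.42.0 (R 4.3.3), the study's tool, with genotype as the only term, two-sided Wald tests and Benjamini-Hochberg adjustment over all 15986 genes, and calls at an adjusted p below 0.05. DESeq2 gave 8 tested genes no adjusted p, which was left missing. Fold changes give Adipoq-F2-KO relative to FFA2 fl/fl, intervals are 1.96 SE, and log2 levels use a pseudocount of 1. A list score is the mean centred log2 value of its tested genes. Symbols, overlaps and exonic lengths came from the GENCODE annotation of GRCm38. Alternatives were TMM factors, edgeR 4.0.16, limma-voom 3.58.1, 2 other filters, a replicate block, a smooth muscle covariate, deep libraries only and leaving out each library, 16 in all. The relation to depth planned beside the 40 others was not computed, because totals form clusters. Pairs of libraries of a genotype differed by a chi-square of 5.04 to 56.6 per gene, so none was a duplicate. Intervals reflect counting error together with differences among libraries, and nothing else.

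The named genes are the 10 members, up to 3 genes per list with the smallest unadjusted DESeq2 p below 0.05, the 5 genes most like the mean of the 10, and genes overlapping a member; Fosl2 and Jund were added after their values were seen. One gene that this rule names is left out. The members and lists were chosen with earlier results of these data known. The remaining marker lists (crypt, Paneth, goblet, enteroendocrine, tuft, endothelium, macrophage, T cell, B and plasma cell, mast cell, pancreas) held no called gene, and no enteric neuron or glia marker passed the count filter. Among them Top2a (0.33 ± 0.14) and Mki67 (0.35 ± 0.15) had an unadjusted p below 0.05. The DESeq2 script was tested on simulated data.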

Additional observations from a re-analysis of the deposited data

Results flagged for a closer look

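In 2 of 42 groups of 4 libraries checked, a value stood far from the other 3 libraries of their genotype by Dixon's criterion, which chance alone meets in about 1 group in 20. Sgk1 had 3378 normalized counts in floxed 4, while the other 3 floxed libraries lay between 6322 and 6339.7. Mki67, a proliferation marker, had 795 normalized counts in floxed 3, while the others lay between 569 and 585. None of the 10 immediate early genes met the criterion in either genotype.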

How the results depend on the processing

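Of the 10 immediate early genes, 0 had an adjusted p below 0.05 in each of the 16 alternative fits. The number at an unadjusted p below 0.05 was 2, but 1 with limma-voom, 1 with a minimum mean of 50 normalized counts (which removed Ier3), 0 among the deep libraries, and 0 to 3 when single libraries were left out (0 without floxed 3, 3 without floxed 4, namely Fos, Fosb and Dusp1). The median log2 fold change stayed below 0, from -0.49 to -0.16 with libraries left out. Over all tested genes 6 were called, but 2 by edgeR, 1 by limma-voom, 3 without a filter, 78 among the deep libraries and 2 to 103 with libraries left out (103 without floxed 3, 23 without floxed 2, 2 without floxed 1, 3 without floxed 4 or Adipoq-F2-KO 4).

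With a replicate block 1 of the 10 genes had an unadjusted p below 0.05, and 11 of all tested genes were called. Equal numbers did not pair the samples, as the correlations of their deviations were 0.54, 0.29, 0.01 and -0.42.

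Signs turned for Jun with limma-voom (0.037), the replicate block (0.0079), the deep libraries (0.28), without floxed 3 (0.21) and without Adipoq-F2-KO 4 (0.0071; range with libraries left out -0.32 to 0.21), for Atf3 among the deep libraries (0.32) and without floxed 1 (0.010; range -0.42 to 0.010), and for Ier2 once the smooth muscle score was a covariate (0.0033) and without floxed 1 (0.027), floxed 4 (0.022) or Adipoq-F2-KO 2 (0.059; range -0.098 to 0.059). The causes were not tested. Undivided by length, Zfp36 ranked above Fos, Jun above Junb, Egr1 (7) above Dusp1 (8), and Fosb (9) above Ier3 (10).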
